A study of Mus musculus with 6 samples.

Results

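The genes described here carry out fatty acid oxidation and uptake and were measured in tibialis anterior, a shin muscle made almost wholly of fast fibres. A list of 40 genes was drawn up by name, from the lipase that frees fatty acids at the vessel wall to the mitochondrial enzymes that shorten them, and 37 of the 40 were measured among 22180 genes in all. Cpt1b and Acsl3 lay on probe sets naming several genes and Acsl1 on none naming it alone, so these 3 genes were not analysed here. The rule takes the genes by name and uses no measured value, though the list was drawn up with earlier results of these data known.

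The samples were male C57Bl/6 mice, 3 sham-operated and 3 castrated, with surgery at 11 weeks of age and sampling 7 weeks later, at 18 weeks. Without testes a male mouse loses most of its androgen, and the comparison asks what that does to gene expression in muscle. The feeding label reads fasted for every sham and refed for every castrated mouse. The design text has some mice eat for 30 minutes after an overnight fast and others stay fasted, with food withheld from all for the last 4 hours, while the protocol attached to each sample gives the meal to every mouse. Fatty acid genes respond to feeding as well as to hormones, and surgery and feeding label cannot be told apart in these samples. Each sample is one array, and values are log2 array signals, so 1 unit is a doubling.

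Array medians over all genes were between 5.40 and 5.47. The 10 fast-fibre markers checked, such as Ckm and Myh4, lay between the 99.63rd and 99.98th percentile of mean level, which matches the tissue label. Of all 22180 genes 3 passed limma's test at an adjusted p of 0.05 (0.0135%), and none of the 3 is a member. In whole tissue, fewer cells of a type and less RNA per cell cannot be told apart.

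In muscle, fatty acids are released from lipoproteins by lipoprotein lipase, taken up with the help of CD36 and carried in the cell by a binding protein. Acyl-CoA synthetases activate them, the carnitine palmitoyltransferases move them into mitochondria, and malonyl-CoA blocks that entry. Inside, each cycle of beta-oxidation uses an acyl-CoA dehydrogenase, a hydratase, a second dehydrogenase and a thiolase, and electrons leave through the electron transfer flavoprotein. Fasting muscle relies on this route, and its genes are known targets of PPAR and oestrogen-related receptors with the coactivator PGC-1 alpha.

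Levels of the oxidation and uptake genes differed little between castrated and sham muscle. Of the 37 measured members 0 passed the test over all genes, and the smallest limma adjusted p was 0.696. Differences ran from −0.25 for Ech1, an isomerase for unsaturated fatty acids, to 0.29 for Acad10, an acyl-CoA dehydrogenase family member. Lower in castrated samples were 24 members (64.9%, against 51.5% of all genes) and higher were 13, with a median difference of −0.038 against −0.0056 over all genes. After quantile normalization the split was 20 lower and 17 higher, so part of the lean depends on scaling. After centring on array medians it stayed at 24 lower and 13 higher, with a median of −0.057 against −0.024 over all genes. The members are bright, at a median percentile of level of 95.2. With genes below the 50th percentile dropped, 24 of 35 members were lower, with a median of −0.040 against −0.030 over the genes kept. Part of the lean is thus shared by brighter genes. At an unadjusted p under 0.05 there were 2 members, 1 higher (Acad10) and 1 lower (Ech1), against 7.13% of all genes, 3.62% higher and 3.51% lower. That share of members, 2 of 37, is close to the background. Castrated and sham values did not overlap for 6 members, 2 higher and 4 lower, against 12.8% of all genes, 5.73% higher and 7.02% lower.

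The precision of each difference is given by its 95% interval, which is for that gene alone and not adjusted over all genes. The interval of the difference lay inside a 1.5-fold change either way for 34 of the 37 members and inside 1.3-fold for 24. It reached 1.5-fold for Lpl, Acot1 and Acot2. These intervals extended a median of 0.25 to either side of the estimate, and from 0.21 to 0.49, on the log2 scale. The test over all genes was stricter than these intervals, since Ech1 and Acad10, whose intervals exclude 0, did not pass it.

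**Figure D1:**
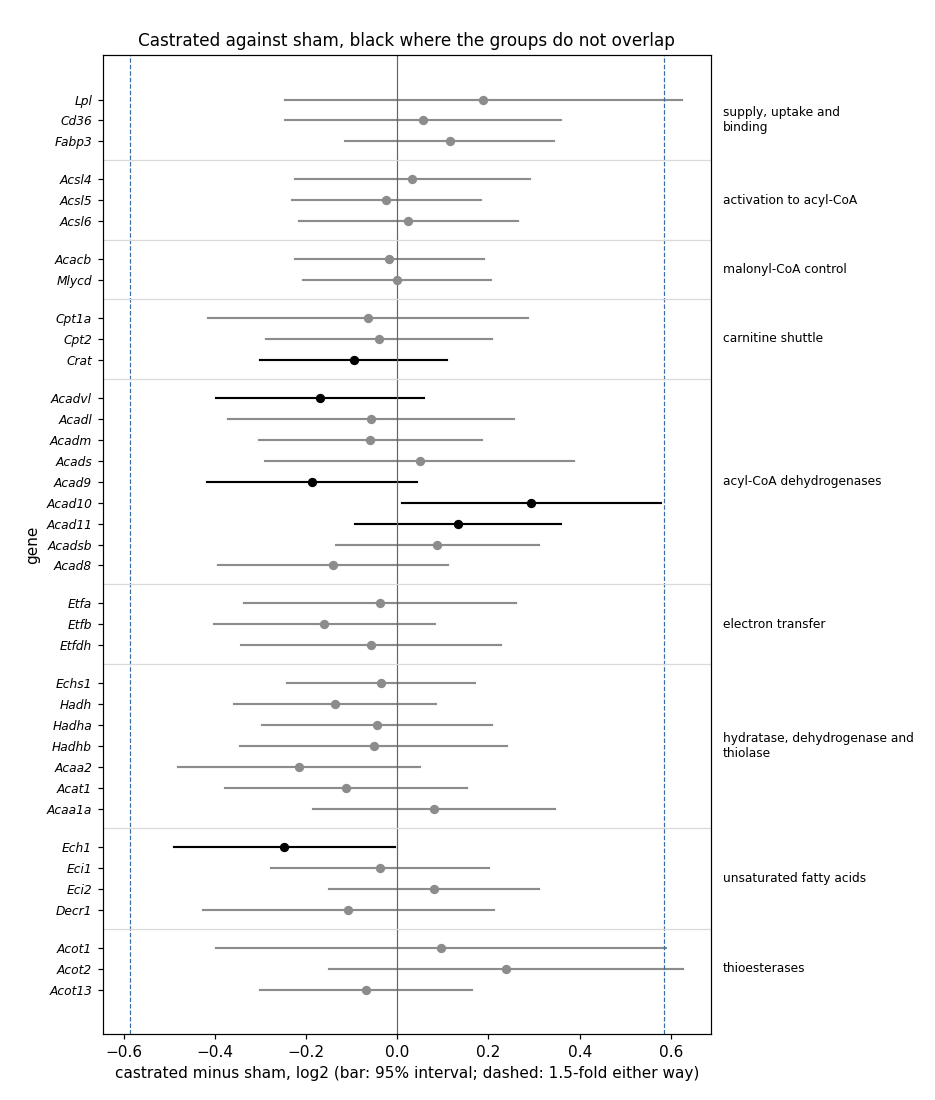
Difference between castrated and sham samples for the 37 measured members, ordered by step (x axis: castrated minus sham in log2 units; points: limma estimates; bars: 95% intervals, n = 3 per group; dashed lines: 1.5-fold either way). The estimates lie between −0.25 and 0.29, and the 6 members whose groups do not overlap are drawn in black.

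Single arrays stood apart within the groups. Sham sample 3 held the highest of the 6 values for 20 of the 37 members, or 54.05%, where it did so for 18.89% of all genes. Among the 26 members at or above the 90th percentile of mean level it was highest for 18, or 69.23%, against 27.4% of all genes that bright. Sham sample 1 held the lowest value for 13 members (35.14%, against 16.15% of all genes) and castrated sample 3 for 12 (32.43%, against 14.84%). With each gene centred on its mean over the arrays, the members' median was 0.13 in sham sample 3, −0.060 and −0.013 in sham samples 1 and 2, and 0.017, −0.0075 and −0.051 in castrated samples 1, 2 and 3. Castrated medians thus lay within the range of the sham medians. For the members, sham samples also varied more than castrated samples. The sham SD was the larger for 29 of 37 members, or 78.4%, against 53.2% of all genes, with a median of 0.13 in sham and 0.071 in castrated samples. Over all genes these medians were 0.135 and 0.127, so the members' sham SD was near that of all genes and their castrated SD was lower. The members are bright, at a median percentile of level of 95.2, and their SDs were not set against genes of similar level. Which group's SD is unusual for such genes is thus not shown. Many members shared their highest or lowest array, so they are not separate measures of the spread among mice. Without sham sample 3 the median difference was 0.0076, with 19 members higher and 18 lower, and 0 passed the test over all genes. At an unadjusted p under 0.05 there were then 3 members, Acad10, Acot2 and Lpl. Without castrated sample 3 the median difference was −0.0098, with 16 members higher and 21 lower.

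Other tissue components also differed between these arrays. On the same centred scale, the median of 7 tendon markers was −0.65 in sham sample 3 and between −0.18 and 0.45 in the other samples. The 9 slow-fibre markers had a median of 0.86 in castrated sample 1, against −0.27 to −0.060 in the remaining arrays. Without castrated sample 1 the members' median difference was −0.073. Endothelial markers stood at 0.081 in sham sample 3 and between −0.045 and 0.025 elsewhere, and the 8 measured adipocyte markers at −0.021 in that sample and between −0.22 and 0.12 elsewhere. As log2 of the summed signal, tendon markers were 10.67 to 11.58 in the sham mice against 11.37 to 11.66 after castration, and slow-fibre markers 9.54 to 9.81 against 9.60 to 10.69. Macrophage markers were 9.82 to 10.62 against 9.66 to 10.29, those of fibro-adipogenic progenitors 12.53 to 12.92 against 12.50 to 12.84, and those of satellite cells 8.60 to 8.75 against 8.64 to 9.02. The sums of Schwann cell markers were 8.31 to 8.42 against 8.33 to 8.61, and those of smooth muscle 12.09 to 12.40 against 12.35 to 12.39, so all 7 of these lists overlapped between the groups. Markers at an unadjusted p under 0.05 were Kera (0.89), Mkx (0.52), Fmod (0.53) and Comp (0.48) of tendon and Lyz2 (−0.57) of macrophages. Others were Col1a1 (0.87) and Gsn (−0.28) of progenitors, Vcam1 (0.22) of satellite cells, Cldn5 (−0.65) and Emcn (0.34) of endothelial cells and Fabp4 (0.28) of adipocytes. None passed over all genes in the main analysis, and 7.13% of all genes had such a p. The part of tissue composition in the members' values was not tested.

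**Figure D2:**
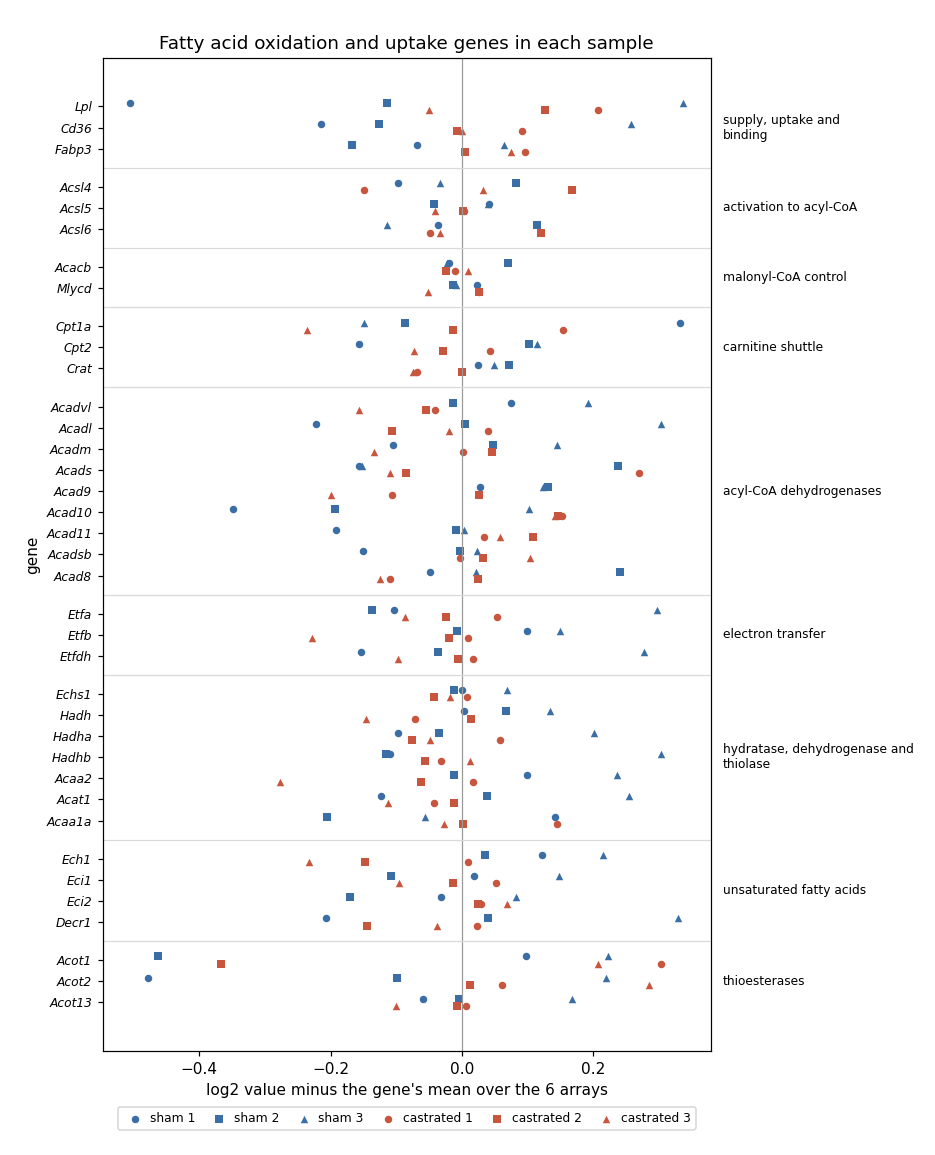
Value of each measured member in each of the 6 samples (x axis: log2 value minus that gene's mean over the arrays; y axis: genes by step; blue: sham, red: castrated; symbol shapes: samples 1 to 3 of each group). Sham sample 3, the blue triangle, is furthest right for 20 of the 37 members.

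**Figure D3:**
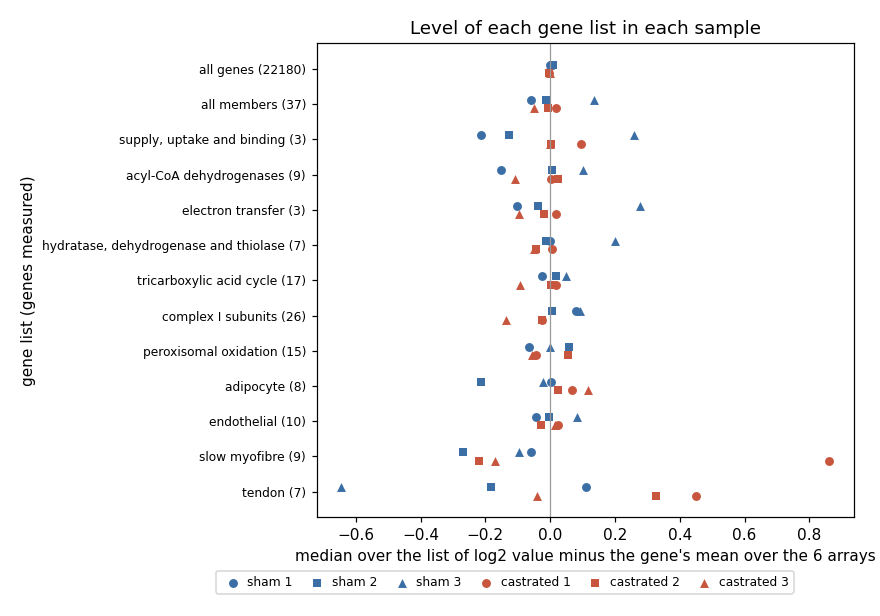
Median of each gene list in each sample, after centring every gene on its mean over the 6 arrays (x axis: log2 units; blue: sham, red: castrated; shapes: samples 1 to 3; number of genes in brackets). The median over all members is 0.13 in sham sample 3 and between −0.060 and 0.017 in the other samples.

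The 3 genes of supply, uptake and binding were higher by small amounts, with a median of 0.12, and none passed. Lpl, which frees fatty acids from triglyceride-rich lipoproteins, read 10.19, 10.58 and 11.03 in sham samples 1 to 3 and 10.90, 10.82 and 10.65 in castrated samples 1 to 3. The castrated values lay inside the sham range, and sham sample 1 was the lowest of all. Its difference was 0.19 with a standard error of 0.19 (limma adjusted p = 0.868). A second, dimmer Lpl probe set read 6.70, 6.94 and 7.74 in sham and 7.43, 7.32 and 7.14 in castrated samples, and so put the 6 samples in the same order. Without sham sample 3 the Lpl difference was 0.40, and without sham sample 1 it was −0.016, so its direction rests on which sham mice are counted.

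Cd36, the fatty acid transporter at the cell surface, read 11.64, 11.72 and 12.11 in sham and 11.94, 11.84 and 11.85 in castrated samples. Again all castrated values lay between the sham values, and the difference of 0.056 had a 95% interval from −0.25 to 0.36. It was −0.038 without sham sample 1 and 0.20 without sham sample 3. Fabp3, the fatty acid binding protein of heart and skeletal muscle, read 8.59, 8.49 and 8.72 in sham and 8.75, 8.66 and 8.73 in castrated samples. The groups overlapped, and the difference was 0.12 (standard error 0.10, limma adjusted p = 0.848). A dim second Fabp3 probe set differed by −0.073, so the direction for this gene depends on the probe set.

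Adipocytes also express Lpl, Cd36 and fatty acid binding proteins, and endothelial cells express Cd36 and such binding proteins. The summed level of the 8 measured adipocyte markers, as the log2 of their summed linear signals, was 10.94 to 11.24 in the sham mice, below the castrated range of 11.33 to 11.41. Fabp4 made up most of that sum, and the fat-cell markers Adipoq and Plin1 were dim, at percentiles 47.8 and 45.2 of level. Of the 8 markers 6 were higher in castrated samples, and no marker was at 0. The summed level of the 10 endothelial markers was 11.94 to 12.09 in the sham mice, a range that held the castrated values of 12.01 to 12.03, with 5 higher and 5 lower. Single endothelial markers differed more than any member, with the junction gene Cldn5 at −0.65 and Emcn at 0.34, both without overlap (limma adjusted p = 0.486 and 0.687). The part of these cell types in the uptake genes was not tested.

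Genes of activation and of malonyl-CoA control had medians of 0.024 and −0.0089, which were 0.075 and 0.030 after quantile normalization. The acyl-CoA synthetases Acsl4, Acsl5 and Acsl6, which attach coenzyme A to fatty acids, differed by 0.033, −0.024 and 0.024. Acsl4, with the largest of these differences, read 7.46, 7.64 and 7.52 in sham and 7.41, 7.72 and 7.59 in castrated samples, so the castrated values spanned the sham values. Another probe set of Acsl6 differed by −0.14.

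Acacb makes the malonyl-CoA that inhibits carnitine palmitoyltransferase, and Mlycd removes it. Acacb read 9.67, 9.77 and 9.67 in sham and 9.68, 9.67 and 9.70 in castrated samples, and its 95% interval ran from −0.23 to 0.19. Mlycd read 8.37, 8.33 and 8.33 in sham and 8.37, 8.37 and 8.29 in castrated samples, with an interval from −0.21 to 0.21. After quantile normalization the differences of Acacb and Mlycd were 0.022 and 0.037. For both genes the group means differed by less than the SD of the sham samples.

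In the carnitine shuttle all 3 measured genes were lower in castrated samples, by 0.096 at most, and none passed. Cpt1a, the liver-type outer transferase, read 7.30, 6.89 and 6.82 in sham and 7.13, 6.96 and 6.74 in castrated samples. Sham sample 1 was the highest for this gene, whereas it was the lowest for Lpl and Cd36. The difference of Cpt1a was −0.064 with an interval from −0.41 to 0.29, and it was 0.085 without sham sample 1. Cpt2, the inner-membrane transferase, read 9.04, 9.30 and 9.32 in sham and 9.24, 9.17 and 9.13 in castrated samples, with a difference of −0.040. Crat, carnitine acetyltransferase, exports surplus acetyl groups as acetylcarnitine. It read 11.22, 11.27 and 11.25 in sham and 11.13, 11.20 and 11.12 in castrated samples. The groups did not overlap, with a difference of −0.096 (standard error 0.091, limma adjusted p = 0.855), and a dim second probe set of Crat differed by 0.011.

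The acyl-CoA dehydrogenases, which start each cycle on chains of a given length, went both ways, with 5 of 9 lower and a median of −0.057. Acadvl and Acadl were both slightly lower. Acadvl, the very-long-chain enzyme, read 10.36, 10.27 and 10.48 in sham and 10.25, 10.23 and 10.13 in castrated samples. No castrated value reached a sham value, but the difference of −0.17 (standard error 0.10) did not pass (limma adjusted p = 0.776). Acadl, the long-chain enzyme, read 11.18, 11.41 and 11.71 in sham and 11.45, 11.30 and 11.39 in castrated samples, with a difference of −0.057 that became 0.080 without sham sample 3. Acadm, the medium-chain enzyme, read 11.82, 11.97 and 12.07 in sham and 11.93, 11.97 and 11.79 in castrated samples, and its difference of −0.059 had an interval from −0.30 to 0.19. Acads, the short-chain enzyme, differed by 0.049.

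Acad10 and Acad11, whose roles in muscle are less well defined, were the 2 members that were higher without overlap. Acad10 read 5.72, 5.88 and 6.17 in sham and 6.22, 6.22 and 6.21 in castrated samples, a 1.23-fold difference (0.29 on the log2 scale, standard error 0.13, limma adjusted p = 0.696). Its level was at percentile 61.9, against a median of 95.2 over the members. The 3 castrated values were nearly equal, and sham sample 3 stood just below them. Without sham sample 1 the difference was 0.19, and without sham sample 3 it was 0.42. When single samples were left out, Acad10 kept an unadjusted limma p under 0.05 only without sham sample 3. Acad11 differed by 0.13. Acad9, which oxidises long chains and also serves in the assembly of complex I, differed by −0.19 without overlap. Acad8 and Acadsb act on branched chains from valine and isoleucine, and they differed by −0.14 and 0.088.

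Electron transfer from these dehydrogenases runs through the flavoprotein subunits Etfa and Etfb to the ubiquinone oxidoreductase Etfdh, and all 3 genes were lower, by a median of 0.057. Etfb read 9.27, 9.17 and 9.32 in sham and 9.18, 9.16 and 8.95 in castrated samples, with overlap at the top of the castrated range, and a difference of −0.16 (standard error 0.11, limma adjusted p = 0.793). Etfdh read 10.97, 11.09 and 11.40 in sham and 11.14, 11.12 and 11.02 in castrated samples. Without sham sample 3 its difference changed from −0.057 to 0.067. Etfa differed by −0.038. All 3 were highest in sham sample 3, where they stood 0.30, 0.15 and 0.28 above their means for Etfa, Etfb and Etfdh.

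Of the 7 hydratase, dehydrogenase and thiolase genes 6 were lower (Echs1 turned after quantile normalization), with a median of −0.052. Hadha and Hadhb encode the subunits of the mitochondrial trifunctional protein, which carries out the last steps on long chains. The genes start back to back on mouse chromosome 5, 272 bases apart in the RefSeq models of GRCm38.p6, so they share a promoter region. The 250 bases before the Hadhb start (chr5:30155003-30155252, plus strand), which lie wholly between both starts, are shown as part of that region. Its part in the levels of the 2 genes was not tested.

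Hadhb: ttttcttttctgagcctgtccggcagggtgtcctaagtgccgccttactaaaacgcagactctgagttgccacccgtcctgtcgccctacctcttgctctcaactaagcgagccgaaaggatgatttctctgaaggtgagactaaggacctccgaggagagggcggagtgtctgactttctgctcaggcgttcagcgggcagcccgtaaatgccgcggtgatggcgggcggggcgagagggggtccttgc

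Hadha read 11.35, 11.41 and 11.65 in sham and 11.50, 11.37 and 11.40 in castrated samples, with a difference of −0.045. Hadhb, at percentile 61.4 of level, read 5.93, 5.92 and 6.34 in sham and 6.01, 5.98 and 6.05 in castrated samples, with a difference of −0.052. Sham sample 3 was the highest for both, at 0.20 above the mean for Hadha and 0.30 for Hadhb, and both differences turned positive without it (0.044 and 0.087). That peak is not particular to this pair, since the sample was highest for 20 of the 37 members. The castrated samples did not keep the same order for both genes, and the probe sets differ, so their levels cannot be set against each other.

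Acaa2, the mitochondrial thiolase that releases acetyl-CoA, had the largest difference of this step. It read 9.93, 9.82 and 10.07 in sham and 9.85, 9.77 and 9.55 in castrated samples. The groups overlapped by castrated sample 1 alone, and the difference of −0.22 (standard error 0.12) did not pass (limma adjusted p = 0.758). Hadh, the dehydrogenase for medium and short chains, differed by −0.14. Acat1, the acetoacetyl-CoA thiolase that also serves ketone use, differed by −0.11, and Echs1, the short-chain hydratase, by −0.037, which was 0.0035 after quantile normalization. Acaa1a, a peroxisomal thiolase, differed by 0.080 and was dim, at percentile 43.6 of level.

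Among the 4 enzymes that handle double bonds, Ech1 had the lowest difference of all members. Ech1 moves double bonds in unsaturated fatty acids into the position that the cycle can use. It read 11.24, 11.15 and 11.33 in sham and 11.13, 10.97 and 10.88 in castrated samples. Every castrated value was under every sham value, though castrated sample 1 and sham sample 2 were close. The difference was 1.19-fold (−0.25 on the log2 scale, standard error 0.11, limma adjusted p = 0.696), and with a sample left out it ran from −0.31 to −0.19. Eci1, Eci2 and Decr1, which act on other double bonds, differed by −0.038, 0.081 and −0.11, and Eci1 by 0.023 after quantile normalization.

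Thioesterases split acyl-CoA back to free fatty acids, and 2 of the 3 genes were higher, with a median of 0.096. Acot2, the mitochondrial enzyme, read 11.58, 11.96 and 12.27 in sham and 12.12, 12.07 and 12.34 in castrated samples. Sham sample 3 lay among the castrated values and the other sham samples below them, and the difference of 0.24 (standard error 0.17) did not pass (limma adjusted p = 0.808). It was 0.059 without sham sample 1 and 0.41 without sham sample 3. Acot1, the cytosolic neighbour of Acot2 with a closely related sequence, read 5.18, 4.62 and 5.30 in sham and 5.38, 4.71 and 5.29 in castrated samples. Sample 2 was the lowest in both groups, and the gene was dim, at percentile 42.4 of level, so its difference of 0.096 is uncertain. Acot13 differed by −0.068.

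The upstream sequences of members were searched for sites of PPAR and oestrogen-related receptors, known to drive these genes, and for the androgen receptor site. Of the 37 measured members 30 had a RefSeq promoter entry in GRCm38.p6, and the 250 bases before each start were read on both strands. The core hexamer of nuclear receptor sites, AGGTCA, occurred in 6 of 30 members (20%), namely Acadm, Acadvl, Acsl6, Cd36, Cpt1a and Echs1, against 15.8% of 27025 genes. The direct repeat used by PPAR, that hexamer written 2 times with any 1 base between, occurred in 0 of 30 members and in 0.0407% of genes. The site TCAAGGTCA of oestrogen-related receptors, which also contains it, occurred in Acsl6 and in 0.422% of genes. The palindrome of androgen and glucocorticoid receptors, AGAACA and TGTTCT with any 3 bases between, occurred in 0 of 30 members and in 0.0111% of genes. The exact repeat and palindrome are so rare over all genes that finding 0 in 30 says nothing particular about the members. A match describes these letters only, and many receptor sites lie outside such a window.

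The windows of 3 members are shown. Acadm was taken because its gene is a textbook PPAR target, and Acadvl and Ech1 as examples of the 6 members without overlap. Of those 6, Acadvl alone is among the members named above with the hexamer. The windows are chr3:153944644-153944893 (minus strand), chr11:70015429-70015678 (minus strand) and chr7:28825088-28825337 (plus strand), each written 5′ to 3′ with AGGTCA or its complement in capitals. The hexamer starts 249 bases before the Acadm start on the opposite strand and 87 bases before the Acadvl start, and Ech1 has none in this window.
Acadm: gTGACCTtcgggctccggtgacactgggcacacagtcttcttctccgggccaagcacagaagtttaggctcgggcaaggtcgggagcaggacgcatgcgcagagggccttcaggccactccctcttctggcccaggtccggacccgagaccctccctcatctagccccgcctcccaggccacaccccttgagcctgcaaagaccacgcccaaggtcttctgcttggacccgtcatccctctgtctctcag
Acadvl: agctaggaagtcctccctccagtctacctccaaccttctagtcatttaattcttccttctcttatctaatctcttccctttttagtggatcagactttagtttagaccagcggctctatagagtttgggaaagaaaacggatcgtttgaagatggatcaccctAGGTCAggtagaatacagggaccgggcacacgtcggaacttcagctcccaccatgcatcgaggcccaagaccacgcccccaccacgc
Ech1: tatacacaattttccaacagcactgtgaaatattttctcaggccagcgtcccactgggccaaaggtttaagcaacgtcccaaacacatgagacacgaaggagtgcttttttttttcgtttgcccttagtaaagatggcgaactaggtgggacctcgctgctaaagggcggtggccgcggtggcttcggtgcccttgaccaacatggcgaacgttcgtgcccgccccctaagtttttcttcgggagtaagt

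The regulators of the route did not move as one. Of 17 measured transcriptional regulators 7 were higher and 10 lower, 0 passed over all genes, and the median was −0.070. The coactivator Ppargc1a read 8.84, 9.03 and 8.97 in sham and 9.41, 10.53 and 10.16 in castrated samples, a 2.12-fold difference without overlap (1.09 in log2 units, standard error 0.24, limma adjusted p = 0.446). The castrated values were far apart. The member medians in castrated samples 1, 2 and 3 were 0.017, −0.0075 and −0.051, and a link between them and Ppargc1a was not tested. The related coactivator Ppargc1b differed by 0.027. Ppara and Ppard, the fatty acid receptors of muscle, differed by 0.093 and −0.070, and Esrra, an oestrogen-related receptor, by −0.16. Pparg, the receptor typical of fat cells, read 5.73, 5.62 and 6.06 in sham and 6.22, 6.11 and 6.26 in castrated samples, a difference of 0.40 without overlap (limma adjusted p = 0.658). Of 7 subunits of the energy sensor AMPK 5 were higher, with Prkab2 at 0.22 and Prkab1 at −0.066.

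Among genes next to the members in fatty acid supply, Vldlr and Slc27a4 (−0.32, with overlapping groups) had larger differences than any member. Vldlr, a lipoprotein receptor, read 10.77, 10.95 and 11.10 in sham and 10.36, 10.57 and 10.57 in castrated samples, and was 1.36-fold lower without overlap (limma adjusted p = 0.544). Fabp4, the binding protein of fat and endothelial cells, read 10.95, 10.75 and 11.05 in sham and 11.25, 11.16 and 11.17 in castrated samples, a difference of 0.28 (limma adjusted p = 0.685). Over the 14 genes of other uptake and carnitine transport 6 were higher and 8 lower, with a median of −0.023. Slc25a20, which exchanges acylcarnitine across the inner membrane, differed by −0.10.

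Lipid droplet and lipolysis genes had a median of 0.013, with 8 of 14 higher. Plin3, a coat protein of lipid droplets, read 7.48, 7.76 and 7.79 in sham and 7.23, 7.00 and 7.19 in castrated samples. It was 1.45-fold lower with no overlap (−0.54 on the log2 scale, standard error 0.12, limma adjusted p = 0.449). Mgll, the monoglyceride lipase, differed by 0.22, and Pnpla2, the lipase that starts triglyceride breakdown, by −0.13.

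Of 9 measured genes listed for their response to fasting, mostly PPAR targets, 8 were higher, against 10757 of all 22180 genes. Their median was 0.062, and 0 passed over all genes. Some of the 8 were close to no difference, such as Plin2 (0.019) and Angptl4 (0.0016, and −0.017 after centring on array medians). Aqp7, a glycerol channel of adipose and muscle, read 8.48, 8.77 and 8.79 in sham and 9.04, 8.96 and 8.94 in castrated samples, a 1.23-fold difference without overlap (limma adjusted p = 0.682). Tfeb, a transcription factor on this list, differed by 0.17. Pdk4, which spares glucose in fasting, differed by −0.10 and the uncoupling protein gene Ucp3 by 0.062, and both had groups that overlapped.

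Ketone use held the largest difference next to that of Ppargc1a among all the pathway genes listed. Bdh1, the mitochondrial enzyme that turns beta-hydroxybutyrate into acetoacetate, read 6.53, 6.62 and 7.34 in sham and 5.98, 5.85 and 5.74 in castrated samples. It was 1.97-fold lower with no overlap (−0.97 on the log2 scale, standard error 0.20), but did not pass over all genes (limma adjusted p = 0.398). Sham sample 3 was again the highest, and without it the difference was −0.72. Oxct1, which acts next in ketone use, differed by 0.12, and of the 4 measured genes of this list 3 were higher.

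**Figure D4:**
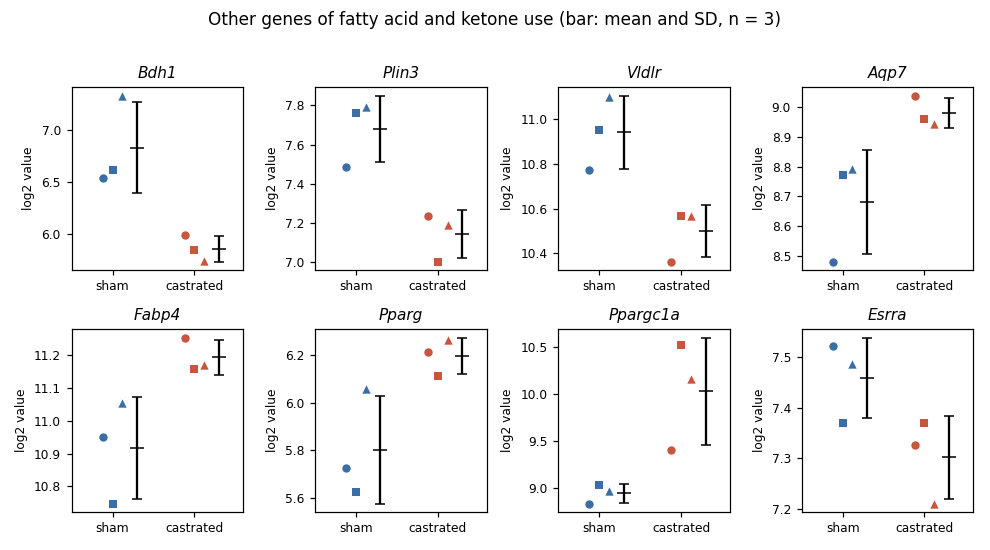
Level of 8 pathway genes outside the member list in each sample (y axis: log2 value, scaled per gene and not starting at 0; circle, square and triangle: samples 1, 2 and 3 of each group; bars: mean and SD, n = 3). Bdh1, Plin3 and Vldlr are lower and Aqp7, Fabp4, Pparg and Ppargc1a higher in all castrated samples, while the Esrra groups nearly meet, at 7.37 in both, and none of them passed the test over all genes.

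The steps that receive the products of oxidation were measured too. Of 17 tricarboxylic acid cycle genes 11 were lower, with a median of −0.034, and Fh1 and Idh3g differed by −0.16 and −0.11. Of 26 measured complex I subunits 22 were lower, with a median of −0.11, which is further from 0 than the members' median, though the difference between these lists was not tested. Its genes with the smallest p, Ndufs4 and Ndufa9, differed by −0.38 and −0.27. Of the 26 subunits 8 were lower without overlap, against 7.02% of all genes. With or without overlap, 51.5% of all genes were lower. The subunits are bright, at a median percentile of level of 97.0, and were not set against genes of similar level. Genes at or above the 50th percentile had a median difference of −0.030. Peroxisomal oxidation had 9 of 15 genes lower and a median of −0.014, with Phyh at −0.22 and Abcd2 at 0.23. Branched-chain amino acid oxidation had 8 of 15 lower and a median of −0.011, with Bcat2 and Hsd17b10 both at −0.21. No gene of these 4 lists passed over all genes.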

How the data were processed

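Per the labels' protocols, total RNA from about 25 mg of muscle was labelled for Affymetrix whole-transcript arrays. Each deposited value is the authors' log2 expression of a probe set. The submitters' processing notes name Partek, and the authors' background correction, summarization and normalization are not stated by any label or file header. For such arrays depth does not apply, and precision is limited by their number.

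Of 41345 probe sets, 23521 name 1 gene, 1814 several and 16010 none. Symbols were updated by Entrez identifier, and 23328 matched the RefSeq table of GRCm38.p6. Each gene took its probe set with the highest mean, without a filter, giving 22180 genes. Castrated was compared with sham by limma 3.58.1 in R 4.3.3 (lmFit, eBayes), with Benjamini-Hochberg adjustment over all genes. No batch information was used here, and the feeding label could not be a covariate. The labels name a mouse for each sample but no litter or cage, so each p-value reflects spread among these 6 samples only, which may be partly technical. Replicate numbers were not used as pairs. Per-sample values are given for members at an unadjusted p under 0.05, for the largest difference of each step and for genes fixed by name. The 2 genes with the smallest p are given for each pathway list. Members and lists were chosen with earlier results of these data known. The fit was tested on simulated data. Sequences are RefSeq's, and figures used matplotlib 3.10.9.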

Additional observations from a re-analysis of the deposited data

How the results depend on the processing

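No member passed limma's test over all genes under any of the settings tried, and the 3 arrays a group limit the precision of each difference. The number of genes past the threshold was 3 in the main analysis, 9 and 16 when genes below the 25th or the 50th percentile of level were dropped, 10 with a trended and robust prior and 0 without variance moderation, where 6.37% of genes had an unadjusted p under 0.05; fewer genes tested is part of the 25th and 50th percentile settings, and otherwise the cause was not tested. Members at an unadjusted p under 0.05 were 2 in the main analysis and 1 with quantile normalization (Acad10), cyclic loess (Acad10) or centring on array medians (Ech1). They were 3 with a trended and robust prior (Acaa2, Acad10 and Ech1) and 2 without variance moderation (Crat and Ech1). The tendon marker Kera passed over all genes once those below the 50th percentile were dropped. The median of the malonyl-CoA genes was 0.030 with quantile normalization and 0.029 with cyclic loess. Directions turned with quantile normalization for Acacb (0.022), Mlycd (0.037), Echs1 (0.0035) and Eci1 (0.023), with cyclic loess for Acacb (0.017), Mlycd (0.042) and Echs1 (0.0012), and with the mean of all probe sets for Acsl6 (−0.059). The 50th percentile setting gave no value for the steps of Acaa1a and Acot1, which it removes.

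With the replicate number as a block, 2 genes and 0 members passed, and 1 member (Acad10) had an unadjusted p under 0.05. Same-numbered samples deviated together only weakly (correlations 0.076, 0.033 and 0.047), so the numbers were not taken as pairs, although every sample correlated best with its own number, which is a hint from the data and not from the design.

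Leaving out a sample moved the count of members at an unadjusted p under 0.05 between 0 and 3. Step medians ran from −0.11 to −0.013 for the carnitine shuttle, −0.14 to 0.028 for unsaturated fatty acids and −0.088 to 0.29 for thioesterases. Differences that changed sign ran from −0.016 to 0.40 for Lpl, −0.038 to 0.20 for Cd36, −0.042 to 0.12 for Acsl4, −0.029 to 0.088 for Acsl6, −0.034 to 0.013 for Acacb, −0.013 to 0.026 for Mlycd, −0.16 to 0.085 for Cpt1a and −0.13 to 0.0076 for Cpt2. They ran from −0.18 to 0.080 for Acadl, −0.073 to 0.18 for Acads, −0.12 to 0.10 for Etfa, −0.15 to 0.067 for Etfdh, −0.11 to 0.044 for Hadha, −0.12 to 0.087 for Hadhb, −0.0032 to 0.17 for Acaa1a, −0.10 to 0.026 for Eci1, −0.24 to 0.031 for Decr1 and −0.11 to 0.30 for Acot1. Outside the members they did so for Ppard (−0.13 to 0.011), Ppargc1b (−0.018 to 0.055), Ucp3 (−0.059 to 0.16) and Pnpla2 (−0.24 to 0.0037).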
